A study of Drosophila melanogaster with 2 samples.

Results

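CG17801 and 4 neighbouring genes, Odj, Nnk, CG17806 and CG17803, form a row of zinc finger genes on chromosome arm 3R of Drosophila melanogaster. All encode proteins with C2H2 zinc fingers and are counted here as ZAD genes. The 5 members were given by name, out of 13945 protein-coding genes annotated on arms X, 2L, 2R, 3L, 3R and 4. Every peak with its summit from 2 kb before the first gene to 2 kb after the last (3R, 17796877 to 17811222, dm6) was taken from each deposited list. Chromatin came from ovaries of adult female flies of the strain CG17801-GFP, which stably express CG17801 with GFP at its C-terminus from a genetic modification made by site-specific recombination. The age of the flies was unknown, and fragments had a size range of 200 to 800 bp. ChIP-seq, which sequences the DNA held by a precipitated protein, was run with anti-GFP in 2 biological replicates of 1 group, numbered 1 and 3 in the labels and drawn from 1 donor line. The labels do not give the extent of the inserted DNA, and reads from an added copy of CG17801 and its flanks cannot be told apart from reads of the native locus. Read totals are unknown from peak lists, so no value carries a counting error from reads.

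The ZAD is a domain near the N-terminus of many insect zinc finger proteins. It binds zinc through 4 cysteines and pairs with other ZADs, while the C2H2 fingers that follow it contact DNA. Genes of this family are numerous in flies and often stand in rows of related copies. Odj (Oddjob) and Nnk (Nicknack) are known in Drosophila melanogaster as genes needed for viability, and Odj protein is known to reach heterochromatin. The row described here therefore holds the gene of the profiled protein beside its relatives.

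The 5 genes lay on the minus strand, head to tail, within 10346 bp. In the direction of transcription their order was Odj (FBgn0038551, 3R, 17807407 to 17809222), CG17801 (FBgn0038550, 17805679 to 17807085), Nnk (FBgn0038549, 17803225 to 17805249), CG17806 (FBgn0038548, 17801542 to 17803260) and CG17803 (FBgn0038547, 17798877 to 17801512). Short gaps separated them. The gap before the start of CG17801 measured 321 bp and ended at the 3′ end of Odj, and the gap before Nnk measured 429 bp. The start of CG17806 lay inside the 3′ untranslated region (UTR) of Nnk, an overlap of 36 bp, and 29 bp separated CG17803 from CG17806. Odj had 178 bp between its start and the 3′ end of Alg1, a gene of protein glycosylation. CG17803 had annotated transcription start sites (TSSs) at 17801512 and 17801293, and the other members had 1 each.

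The upstream sequences of the 3 members with an intergenic gap of more than 100 bp are shown. The main peaks near the starts of these members lie in or beside the gaps, while that upstream of CG17806 lies elsewhere. The sequences are read on the minus strand, 5′ to 3′ toward the gene, from the RefSeq Release 6 sequence. The stretch for CG17801 is chr3R:17807107-17807406 and starts at the base next to the 3′ end of Odj. The stretch for Odj is chr3R:17809223-17809400, the whole gap, and that for Nnk is chr3R:17805250-17805549, the 300 bases of its gap next to the TSS. Capitals mark the letters of the promoter motifs searched below.
CG17801: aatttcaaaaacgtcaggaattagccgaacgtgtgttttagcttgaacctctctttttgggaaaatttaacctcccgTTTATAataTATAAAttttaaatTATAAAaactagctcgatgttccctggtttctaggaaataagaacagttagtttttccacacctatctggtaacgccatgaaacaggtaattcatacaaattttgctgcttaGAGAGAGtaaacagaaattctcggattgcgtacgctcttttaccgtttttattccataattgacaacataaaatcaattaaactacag
Odj: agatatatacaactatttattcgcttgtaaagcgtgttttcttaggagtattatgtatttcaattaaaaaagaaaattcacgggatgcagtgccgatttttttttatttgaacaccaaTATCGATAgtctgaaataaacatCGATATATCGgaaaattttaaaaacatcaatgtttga
Nnk: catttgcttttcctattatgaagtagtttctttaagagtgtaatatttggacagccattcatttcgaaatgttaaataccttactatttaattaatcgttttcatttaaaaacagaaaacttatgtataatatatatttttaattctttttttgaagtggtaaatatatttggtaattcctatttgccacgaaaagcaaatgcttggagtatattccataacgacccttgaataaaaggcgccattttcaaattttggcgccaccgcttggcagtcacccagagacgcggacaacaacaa

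Peaks stood mainly in the gaps between genes and at or near starts, and the member of highest signal was Odj. The IDR list, thresholded by the authors on the irreproducible discovery rate, a measure of agreement in rank between replicates, held 6723 peaks, and 4 of their summits fell in the window. In the order of transcription these were at the TSS of Odj (17809222), between Odj and CG17801 (17807395), upstream of CG17806 (17803352) and beyond the 3′ end of CG17803 (17798403). The list made from both replicates together (the pooled list) had 7 summits in the window, the replicate 1 list 9 and the replicate 3 list 7, each of 30000. In the IDR list 2 of 5 members, Odj and CG17806, had a summit within 250 bp of a TSS, which is called bound here, against 30.4% of all protein-coding genes. In the pooled list 3 of 5 members were bound (Nnk joined them), against 55.4% of genes. The same 3 of 5 were bound in the replicate 1 list, against 54.0% of genes, and in the replicate 3 list, against 54.4%. With 5 members these shares are a description and were not tested.

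**Figure D1:**
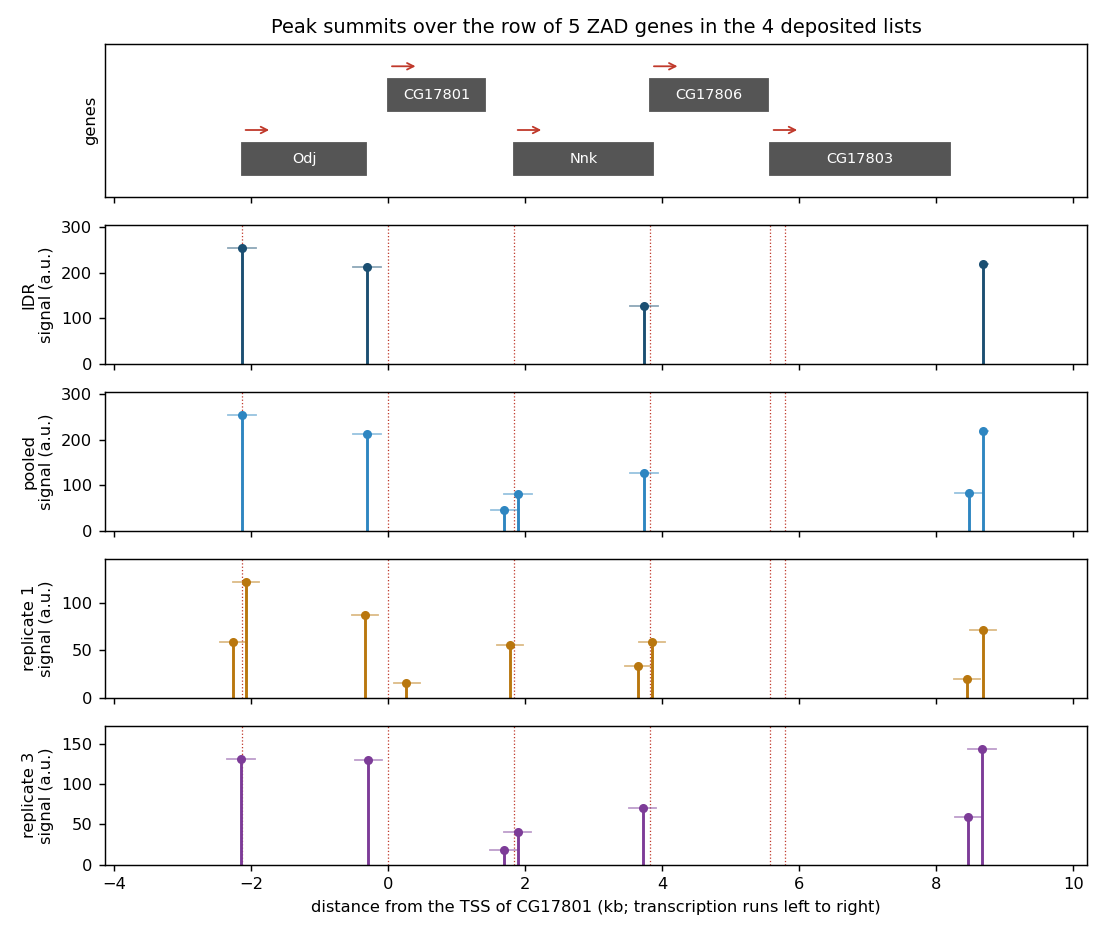
Genes of the row (top) and the peaks of the IDR, pooled, replicate 1 and replicate 3 lists (lower panels) along distance from the TSS of CG17801 in kb, drawn in the direction of transcription. Stems mark summits, horizontal lines peak intervals, height the authors' signal in arbitrary units on a separate scale for each list, and dotted lines the TSSs. Summits stand at the start of Odj, ahead of CG17801, and near the starts of Nnk and CG17806, and none stands at CG17803.

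CG17801, the gene of the tagged protein, had its main summit upstream of the start and outside the promoter zone of 250 bp. The IDR summit lay 310 bp upstream of the TSS with a signal of 212, at rank 2514. The signal is the authors' own value for a peak, on a scale not given in the sources used here, and it is compared only within a list. Replicate 1 had this summit 336 bp upstream, with a signal of 87.2 at percentile 89.6 of its list (100 is the strongest). Replicate 3 had it 297 bp upstream, with a signal of 130 at percentile 92.2. Both replicates thus had a strong peak over the upstream end of the gap, and their summits differed by 39 bp.

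These summits lay closer to the 3′ end of Odj than to the start of CG17801. The IDR summit was 12 bp from that 3′ end, in the gap, and is base 12 of the CG17801 sequence printed above. The replicate 3 summit is base 25 of the same sequence, while the replicate 1 summit fell 14 bp inside the 3′ UTR of Odj. The peak interval of the IDR list, 17807193 to 17807596, did not reach the TSS of CG17801 at 17807085. Of all protein-coding genes, 3.53% (492) had their nearest IDR summit more than 250 and up to 500 bp from a TSS. Of the 3024 IDR summits more than 250 bp from every protein-coding TSS, 1.22% (37) lay within 50 bp of an annotated 3′ end. Distance to 3′ ends was not among the planned measures, so this share is a description and no measure of rarity. Replicate 1 had 1 further summit, in the coding sequence of CG17801, 265 bp downstream of its TSS, with a signal of 15.9 at percentile 17.2. No summit of the other 3 lists lay inside the gene.

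Odj had a peak on its start. The IDR and pooled summits fell on the annotated first base of the gene with a signal of 254, rank 1850 in both lists. In replicate 1 the summit was 62 bp downstream of the TSS with a signal of 122 at rank 1612, and in replicate 3 it was 15 bp upstream with a signal of 132 at rank 2284. The Odj summit was the strongest of the window in the IDR, pooled and replicate 1 lists and ranked second to that of CG7379 in replicate 3. Among genes bound in the same list, Odj stood at percentile 85.0 of signal in replicate 1 and 79.2 in replicate 3. Replicate 1 also had a weaker summit 138 bp upstream, in the gap to Alg1, with a signal of 59.2.

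CG17806 had a weaker peak, whose position differed between replicates. The IDR summit was 92 bp upstream of its TSS, in the 3′ UTR of Nnk, with a signal of 126, close to the lowest value of the IDR list, 117. Its rank was 5960 of 6723. Replicate 3 had 1 summit there, 113 bp upstream with a signal of 70.4. Replicate 1 had a pair of summits, 1 at 24 bp downstream of the TSS with a signal of 58.8 and 1 at 175 bp upstream with a signal of 33.6. The stronger of the pair lay in sequence shared by the 5′ UTR of CG17806 and the 3′ UTR of Nnk. The strongest CG17806 summit of each replicate stood near the middle of all bound genes, at percentile 48.7 in replicate 1 and 47.5 in replicate 3.

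Nnk had a start-site peak in both replicates that did not enter the IDR list. Its pooled summit lay 57 bp downstream of the TSS, in the 5′ UTR, with a signal of 81.1 at rank 10481. In replicate 1 the summit was 54 bp upstream with a signal of 56.2 at rank 6649, and in replicate 3 it was 52 bp downstream with a signal of 40.3 at rank 12421. The replicates differed more in rank here than at Odj. Over 6271 IDR summits matched in both replicates, the larger rank was at the median 1.51 times the smaller. The quartiles were 1.22 and 2.06, and the ratio at Odj lay between them. The ratio at Nnk did so too, but Nnk had no IDR summit and is not part of that set. The set was selected for agreement in rank, so it is no like background for Nnk. Nnk stood at percentile 46.0 of bound genes in replicate 1 and 21.4 in replicate 3. A second, weaker summit lay in the gap in the pooled list (143 bp upstream, signal 46.7) and in replicate 3 (150 bp upstream, signal 18.1).

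CG17803 had no summit inside the gene or within 250 bp of either TSS in the 4 lists. The nearest upstream summits were those at CG17806, 1840 bp from a TSS of CG17803 in the IDR list, 1724 bp in replicate 1 and 1861 bp in replicate 3. Beyond its 3′ end the IDR list had a summit 474 bp away, which is 99 bp upstream of the TSS of the next gene, CG7379. That peak had a signal of 219 in the IDR list, 71.5 in replicate 1 and 144 in replicate 3. A weaker companion lay nearer to CG17803, at 270 bp from its 3′ end in the pooled list, 234 bp in replicate 1 and 261 bp in replicate 3. Of the words of 31 bases that lie wholly within 250 bp of the upstream TSS of CG17803, 99.4% occur once in the reference. All 2606 words within the gene, which holds its other TSS, occur once. Any bearing of this on the missing summit was not tested.

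On the other side of the row, the region upstream of Alg1 had the highest signal nearby. Its IDR summit, at 17811274, was 140 bp upstream of Alg1 and 52 bp outside the window, with a signal of 713 at rank 256. Set against Odj in the same list, the Alg1 signal was 2.80 times as high in the IDR list, 2.19 times in replicate 1 and 3.37 times in replicate 3. The summit upstream of CG17801 had 0.834 times the signal of Odj in the IDR list, 0.715 times in replicate 1 and 0.987 times in replicate 3. For CG17806 the ratios were 0.497, 0.482 and 0.534 in the IDR, replicate 1 and replicate 3 lists, with the stronger summit of the replicate 1 pair. The weaker summit of that pair, which is the one within 100 bp of the IDR summit, had 0.275 times the signal of Odj. Nnk had 0.319 times the signal of Odj in the pooled list, 0.460 in replicate 1 and 0.305 in replicate 3. With the stronger CG17806 summit in replicate 1, the order of the members in each replicate was Odj, the summit before CG17801, CG17806 and Nnk. CG17806 and Nnk were close in replicate 1 (58.8 and 56.2), as were Odj and the summit before CG17801 in replicate 3 (132 and 130). These neighbours in the order were thus not clearly separated in both replicates. With the weaker CG17806 summit, CG17806 fell below Nnk in replicate 1 (0.275 against 0.460 times Odj).

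**Figure D2:**
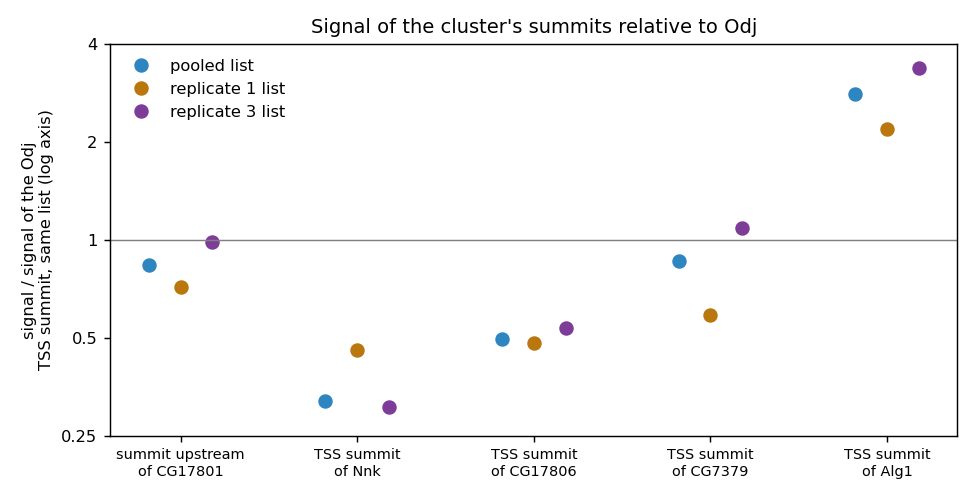
Signal of each summit divided by that of the Odj TSS summit in the same list (log axis), for the pooled, replicate 1 and replicate 3 lists. The members lie at or below 1 in each list, CG17806 (the stronger summit of its pair in replicate 1) between 0.482 and 0.534, and Alg1 lies above 2 in each.

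The IDR summits of the row were found in both replicates. All 4 had a summit of each replicate list within 100 bp, against 93.3% (6271) of the 6723 IDR summits. The distances were 26 and 13 bp for the summit before CG17801, 62 and 15 bp for Odj, 83 and 21 bp for CG17806 and 3 and 14 bp for CG7379, in replicates 1 and 3. Within 50 bp, 2 of the 4 were matched in both. The partner of CG17806 in replicate 1 was the weaker summit of its pair, and with the 6723 strongest peaks of each replicate alone 3 of the 4 were matched. The pooled list was made from the reads of both replicates, so this recovery is not independent of them.

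Peaks were dense over the row, where TSSs were dense too. The window had 2.79 IDR summits per 10 kb, against 0.479 over 3R and 0.502 over all main arms. The same window had 5.58 protein-coding TSSs per 10 kb, against 1.46 over all main arms, and the part of TSS density in the peak density was not tested. Because all 5 members have the next gene upstream on their own strand within 500 bp or overlapping, a second background was taken after the data were seen. Of the 2849 genes so arranged, 29.0% were bound in the IDR list. Almost the whole window is unique sequence, since 14313 of its 14316 words of 31 bases occur once in the reference genome. The 3 IDR peaks at members held no repeated word.

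The 3 IDR peaks in the row from Odj to CG17806 had less G and C than the median IDR peak. Within 100 bp of the summit, G and C made up 27.9% at the peak before CG17801, 29.4% at CG17806 and 32.3% at Odj, against 37.8% at the median IDR summit and 46.2% over the window. The fourth IDR summit of the window, at CG7379, had 36.3%. Letters of 8 promoter motifs were searched on both strands from 250 bp before to 50 bp after each gene start. Odj had TATCGATA, the DRE, which binds the activator DREF, with its first base 60 bp upstream of the TSS, and TATCGATA also contains CGATA, the core letters of BEAF-32 sites. A second pair of CGATA letters lies nearer the start of Odj, printed above in capitals as one run. The DRE letters were in 9.37% of 13945 promoters of the same length, 17.8% of those of bound genes and 5.68% of the others. Odj also had GGTCACAC, core letters of the motif bound by M1BP, another ZAD protein, 20 bp downstream of its TSS. These letters were in 7.71% of promoters, 14.0% of bound and 4.95% of other genes.

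The other members shared few of these letters. CG17806 had CGATA 123 bp upstream, a motif found in 47.5% of promoters, 60.0% of those of bound genes and 42.0% of the others. CG17801 had GAGAGAG, which GAGA factor binds, 109 bp upstream (5.87% of promoters, 5.70% of bound and 5.95% of other genes). TATAAA or its reverse stood at 3 places from 244 to 221 bp upstream of CG17801 (45.9%, 45.6% of bound and 46.0% of other genes). CG17801 also had CAGCTG, an E-box, 24 bp upstream (17.7%, 24.1% of bound and 14.9% of other genes). Nnk had CAGCTG 32 bp downstream. TATAAA also occurred once each at CG17806 and Odj. TCAGT, initiator letters present in 51.6% of promoters (44.9% of bound and 54.6% of other genes), occurred at CG17806. CAGGTAG, which Zelda binds, was in 1.64% of promoters and in none of the 5. CG17803 had none of the 8 motifs in its window. Only the window at its gene start was searched, so the promoters of both its TSSs were not covered in full. These matches describe the letters only.

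The proteins of the members had from 30.3% to 38.2% identical residues over aligned residues in pairs. No identity with other ZAD proteins is given beside these values. Their lengths, read from the annotated coding sequences, were 381 residues for CG17801, 430 for Odj, 439 for Nnk, 421 for CG17806 and 587 for CG17803. CG17803 had 7 C2H2 patterns and the other 4 had 5 each. At least 2 pairs of cysteines spaced as in a ZAD stood in the first 100 residues of CG17801, Odj, Nnk and CG17806. CG17803 had 1 such pair there and 2 before its first finger, so its ZAD was less clear by this pattern. Of the 22 other ZAD proteins listed below, 18 had at least 2 such pairs in the first 100 residues, so CG17803 was not alone in this. Which pair was closest depended on the denominator. Over aligned residues Nnk and Odj were highest, at 38.2% of 327, followed by CG17806 and Nnk with 36.7%. Over the length of the shorter protein CG17803 and CG17801 were highest, at 32.3%, followed by CG17806 and Nnk with 32.1%, while Nnk and Odj had 29.1%. By both measures CG17801 was closest to CG17803, and CG17801 and Odj were the lowest of the 10 pairs, with 30.3% of aligned residues and 27.0% of the shorter protein.

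Other ZAD genes of the genome were set beside the row, from a list of 22 that was chosen with earlier results of these data known. In the IDR list 2 of 5 members were bound, against 13 of 22 other ZAD genes, 59.1%, and 30.4% of all protein-coding genes. These differences were not tested. Odj, with a signal of 254, lay within the range of the 13, which ran from 125 to 343 with a median of 159, and CG17806, with 126, lay near its low end. In the replicate 1 list 3 of 5 members and 17 of 22 others were bound, against 54.0% of all protein-coding genes. In the replicate 3 list these were 3 of 5 and 20 of 22, against 54.4%. The highest of the others was M1BP, which binds core promoters, with an IDR signal of 343 but no summit within 250 bp in replicate 1. Next came pad (283), D19B (239), Sry-delta (235), D19A (215), mld (170) and pita, an insulator protein gene (159). Below these were hang (158), Phs (152), Zif (148), dwg, which encodes the insulator protein Zw5 (143), az2 (134) and grau, which encodes a regulator of meiosis in the egg (125). The replicates differed widely at hang, which had rank 1659 in replicate 1 and 22583 in replicate 3. In a second row on 3R, which holds nom, ouib, ranshi and M1BP, only M1BP was bound in the IDR list. In the pooled list nom (48.0) and ranshi (108) were bound as well. On 3L, the neighbours D19A and D19B were both bound in the IDR list. These groups were picked after their values were seen.

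**Figure D3:**
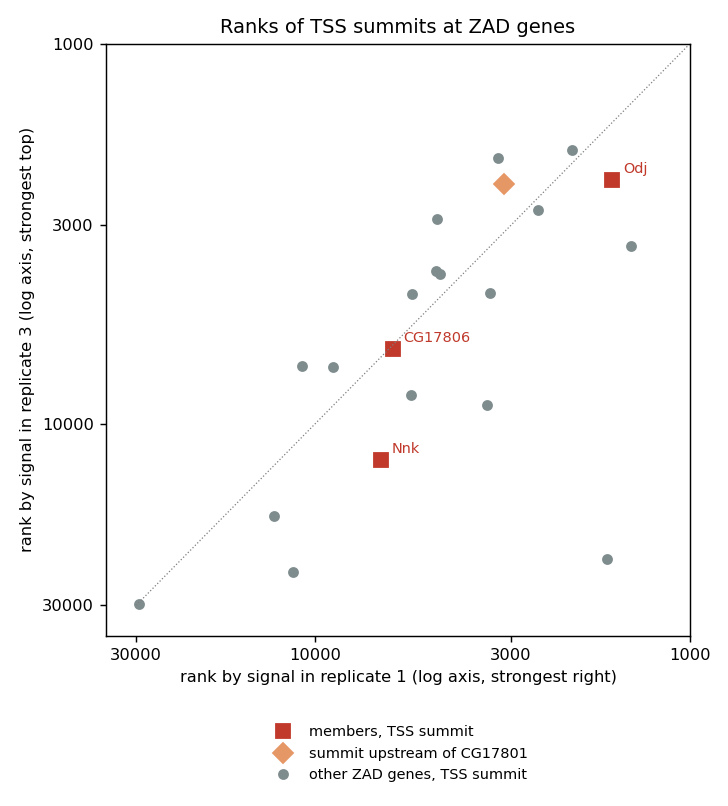
Rank by signal of the strongest TSS summit in replicate 1 (x) and replicate 3 (y), on log axes with the strongest peaks at the upper right, for the 3 bound members (squares) and the other ZAD genes with a TSS summit in both replicates (circles). The diamond is the summit upstream of CG17801, at rank 3126 in replicate 1 and 2337 in replicate 3, and the dotted line marks equal ranks.

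The genes outside the row most like Odj were sought by the distance between log10 ranks of TSS summits over the 2 replicates, among 6883 genes with a summit in both. The nearest were CG17221 and cnir on 2L, which share 1 summit at rank 1579 in replicate 1 and 2213 in replicate 3, against 1612 and 2284 for Odj. The third was mask on 3R, at ranks 1555 and 2381, whose IDR summit lay 13 bp downstream of its TSS with a signal of 220. With only 2 replicates, likeness in rank describes peak strength and no more.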

How the data were processed

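Chromatin of 2 replicates was profiled, and 4 peak lists in narrowPeak format on dm6 were used. Per the file headers in the text deposited with the samples, each replicate list came from that replicate's alignment plus a control. The pooled list used the alignments of both replicates plus that control, and the IDR list was derived from these 3 lists. Which aligner and which caller were used is not given in the sources used here. Each peak's signal value is a score of the authors, as deposited, and ranks are by signal within a list. The −log10 q-value, as deposited, was constant in the IDR list and was not used. Control and untagged samples were not analysed here.

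Peak ends lay within the Release 6 arms, and genes and 19607 TSSs of protein-coding genes came from Ensembl release 115. A gene was bound when a summit lay within 250 bp of a TSS, and summits within 100 bp matched. Members, the window and gene lists were chosen with earlier results of these data known. Named genes are the 5 members, genes with a TSS in the window, bound genes of the other ZAD list, and the 3 genes nearest to Odj in rank. The genes nom, ouib and ranshi, which stand beside M1BP, fall outside this rule and were chosen after their values were seen. Protein features came from translated coding sequences, with C2H2 patterns and global BLOSUM62 alignment. No p-value is given, since peaks and genes are not replicates. Depth is unknown, so precision per peak cannot be stated. Distance and matching functions were tested on simulated data. Python 3.11.15, numpy 2.4.6, pandas 2.3.3, Biopython 1.88 and matplotlib 3.10.9 were used.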

Additional observations from a re-analysis of the deposited data

How the results depend on the processing

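Of 26 alternatives, 23 gave a value within 1.5 times the reported one. Changes from 2 to 3 members and from 4 to 6 peaks lie at that limit and are counted among the 23. In the stronger 3361 peaks of the IDR list 1 member, Odj, was bound in place of 2. With matching within 50 bp, 2 of the 4 IDR summits of the window were found in both replicates in place of 4, and with a TSS distance of 100 bp, 7 of the other ZAD genes were bound in place of 13, while the share of all genes bound was 18.7% in place of 30.4%. At 500 bp CG17801 joined Odj and CG17806, for 3 members against 34.0% of genes, so whether CG17801 counts as bound depends on that distance. With 1 replicate left out, and the same number of strongest peaks taken from the other, the members bound ranged from 2 (without replicate 1, against 29.8% of all genes) to 3 (without replicate 3, against 29.4%), the peaks in the window from 4 to 6, their density from 2.79 to 4.18 per 10 kb and the other ZAD genes bound from 10 to 12. Nnk was the member added without replicate 3, where its summit ranked 6649 of the 6723 peaks taken. No paired analysis was possible because the 2 replicates form 1 group. Read depth is unknown, and the window has few peaks, so differences between neighbouring peaks rest on 2 replicates and carry no error of their own.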

Other observations

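Several summits of the row came in pairs with a nearly fixed spacing. The spacings in the window were 200 and 204 bp in the pooled list, 199, 200 and 243 bp in replicate 1, and 199 and 202 bp in replicate 3. The spacing of the CG17806 pair in replicate 1, 199 bp, compares with 190 bp, which is 0.5 times the median peak width of that list (380 bp). Among neighbouring summits up to 300 bp apart in the pooled list, 64.0% (3208 of 5012) were within 10 bp of 202 bp, which is 0.5 times the median peak width. The share, taken the same way in each list, was 17.1% in replicate 1 and 52.9% in replicate 3. A weaker summit beside a stronger one, as at Nnk in the pooled list and at CG7379, is given here as the files list it, and whether it marks a separate site was not tested.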
